A study of Rattus norvegicus with 11 samples.

Results

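The immediate early genes Fos, Jun and Egr1 were followed across 11 rat retinas measured by RNA sequencing. They were chosen by Ensembl identifier, ENSRNOG00000008015 for Fos, ENSRNOG00000026293 for Jun and ENSRNOG00000019422 for Egr1, and all 3 were present among the 12037 genes of the deposited table. All rats were female, with 1 library per animal. The retinas came from 2 untreated wild-type (WT) rats of an SDxLE cross, from 5 P23H rats injected with DMSO and from 4 P23H rats injected with halofantrine, an antimalarial drug. P23H rats are hemizygous for a transgene encoding a misfolding rhodopsin (line 1, crossed with Long Evans), a model in which rods die progressively. Both P23H groups had received 5 µL into the vitreous of each eye under ketamine and xylazine, with the drug given as 20 to 100 µM, and neither the dose per animal nor the age at collection is in the labels. The WT rats had no injection, so genotype, cross, anesthesia and injection cannot be told apart in any comparison with them. Animal numbers of the 4 halofantrine rats all lay below those of the 5 DMSO rats. Drug and order of animals thus cannot be told apart between the P23H groups. WT sample titles end in L and P23H titles in R, letters that the labels do not explain.

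Immediate early genes are transcribed within minutes of a stimulus without new protein being made, and their mRNAs are short-lived. Fos and Jun proteins pair through leucine zippers to form the transcription factor AP-1, while Egr1 is a zinc finger transcription factor induced by many of the same signals. Growth factor and calcium signals reach Fos and Egr1 through serum response factor, which binds CArG boxes, and through CREB, which binds cAMP response elements. Jun is regulated in large part by stress kinases and by AP-1 itself. In the retina these genes respond to light, neuronal activity, injury and tissue handling.

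The promoter table used here, from RefSeq on build GRCr8, had an entry for Egr1 and none for Fos or Jun. The 250 bases upstream of the Egr1 start, chr18:26736828-26737077 on the plus strand, are shown because only Egr1 of the 3 genes had an entry. Capitals mark matches to the CArG box and to TGACG, the core of the cAMP response element.
Egr1: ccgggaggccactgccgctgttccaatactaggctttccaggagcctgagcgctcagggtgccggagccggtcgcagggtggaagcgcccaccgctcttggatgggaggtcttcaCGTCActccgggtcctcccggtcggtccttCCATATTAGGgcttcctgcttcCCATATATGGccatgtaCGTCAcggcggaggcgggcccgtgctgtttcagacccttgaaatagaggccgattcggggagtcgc
Searched on both strands, this window held 2 CArG boxes, starting 105 and 83 bases before the start, where 1.5% of 33469 upstream windows of the same length held any and 0.0209% held 2 or more. It held 2 matches to TGACG, at 135 and 66 bases, where 18.2% of windows held at least 1 and 3.98% held 2 or more. The AP-1 motif TGANTCA was in 6.34% of windows and the Egr1 motifs GCGTGGGCG and GCGGGGGCG were in 0.478% and 2.45%, but none of these was in the Egr1 window. These matches are descriptions of the sequence.

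Libraries held 11685202 to 34198536 estimated counts, and the members had 133 to 5634 counts per library. Counting error was small beside the larger differences described here. Close values could lie within it, as those of the WT pair did for Fos and Jun. Levels are in CPM, the counts scaled to a common library size after TMM, a correction for composition, and they compare libraries, not genes. P23H DMSO replicate 3 and P23H halofantrine replicate 1 stood apart across all genes, with a mean correlation to their own group of 0.829 and 0.932. The other libraries of these groups reached 0.933 to 0.943 and 0.961 to 0.967. The highest correlation with any other library was 0.844 and 0.942 for these 2, against 0.981 to 0.990 for the other 9. The tables used here pair no symbols with the other identifiers, so the retinal label was not checked against cell type markers. In bulk tissue, fewer cells of a type and less RNA per cell cannot be told apart.

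Fos was higher in every P23H retina than in both WT retinas, which held in that direction for 18.4% of all genes. The WT libraries had 12.7 and 11 CPM of Fos. The DMSO libraries had 51.2, 82.8, 75.7, 21.2 and 27.6 CPM in replicates 1 to 5. The halofantrine libraries had 39.9, 77.4, 69.6 and 67.2 CPM in replicates 1 to 4. DMSO replicates 4 and 5 were the lowest of the P23H libraries, and the DMSO and halofantrine groups overlapped over most of their range.

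**Figure D1:**
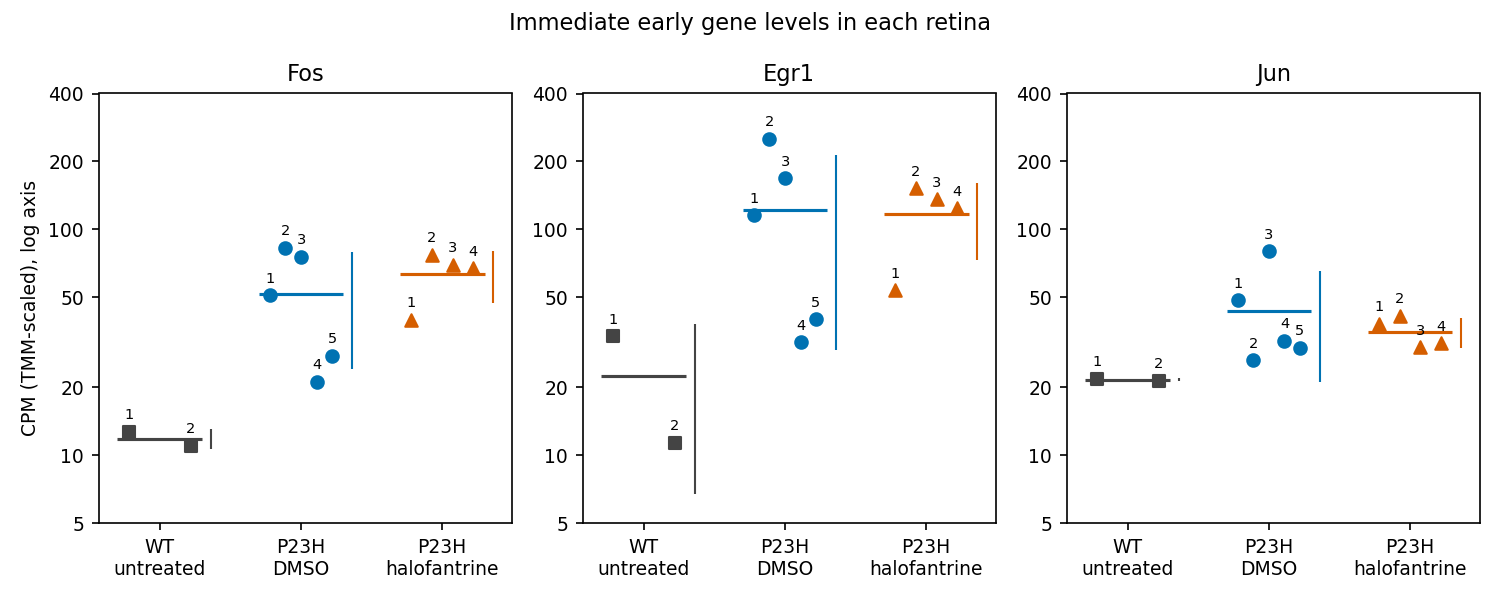
Levels of Fos, Egr1 and Jun in each of 11 retinas (CPM, log axis), by group. Points carry replicate numbers, horizontal lines are group means and vertical lines span 1 SD on either side. All 9 P23H points lie above both WT points for Fos and Jun, and 8 of 9 do for Egr1.

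Mean Fos was 11.8 ± 1.19 CPM in WT (SD, n = 2), 51.7 ± 27.6 CPM in P23H DMSO (SD, n = 5) and 63.5 ± 16.4 CPM in P23H halofantrine (SD, n = 4). Relative to WT, Fos was raised 4.35-fold with DMSO, a log2 fold change of 2.12 (SE 0.543, 95% interval 0.92 to 3.32) with an adjusted p of 0.0207 in the edgeR quasi-likelihood test. It was raised 5.35-fold with halofantrine, a log2 fold change of 2.42 (SE 0.561, 95% interval 1.18 to 3.66), with an adjusted p of 0.0201 by edgeR. Both comparisons share the WT libraries. At this threshold 21.2% of 12031 genes were called for DMSO against WT and 13.1% for halofantrine against WT, in either direction. Genes that were called and higher than WT made up 10.9% and 5.55%. In each comparison the fold change of Fos was larger than that of most genes, exceeding 96.8% and 98.7% of them, while the median over all genes was 0.04 and 0.05 on the log2 scale. Both calls needed both WT libraries. Without WT replicate 1 the adjusted p by edgeR was 0.142 for DMSO and 0.147 for halofantrine, and without WT replicate 2 it was 0.176 and 0.182, with log2 fold changes of 2.00 to 2.49. In limma-voom the adjusted p was 0.147 and 0.101. With only the DMSO and WT libraries in the fit it was 0.0519 by edgeR for DMSO. With only the halofantrine and WT libraries it was 0.00123 by edgeR for halofantrine. DESeq2 gave an adjusted p of 0.000117 for DMSO and 2.78e-05 for halofantrine. The lowest estimate for DMSO, a log2 fold change of 1.36 (adjusted p 0.0126), came from limma-voom with sample weights. For halofantrine that setting gave 2.51 (adjusted p 0.00059). Without the 2 libraries that stood apart the log2 fold changes were 1.87 and 2.54, with an adjusted p by edgeR of 0.0111 and 0.00309.

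An exact two-sided permutation test over samples gave a p of 0.0476 for Fos in DMSO against WT (1 of 21 splits) and 0.0667 in halofantrine against WT (1 of 15 splits). These are the smallest values that 5 against 2 and 4 against 2 samples allow. Adjusted over the 9 comparisons of 3 genes, both exact permutation values became 0.150.

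The question of whether halofantrine altered Fos was addressed by comparing it with DMSO. The fold was 1.23, a log2 fold change of 0.30 with a 95% interval of -0.53 to 1.13, and the adjusted p was 0.798 by edgeR. In the exact two-sided permutation test 48 of 126 splits gave a difference as large (p = 0.381, adjusted 0.490 over the 9 comparisons). The interval runs from a fold of 0.692 to a fold of 2.19, and a change of either size could not be told from none. With sample weights, added after seeing the data, the limma-voom log2 fold change was 1.15 with an adjusted p of 0.0593. Without the 2 libraries that stood apart it was 0.67, with an adjusted p of 0.364 by edgeR. In this comparison 0.00831% of genes, a single one, passed the adjusted threshold.

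Egr1 had the same layout as Fos but a much wider range. The WT libraries had 33.6 and 11.3 CPM of Egr1. The DMSO libraries had 115.3, 252, 168, 31.7 and 39.9 CPM in replicates 1 to 5. The halofantrine libraries had 53.7, 152, 136 and 124 CPM in replicates 1 to 4. The highest DMSO library exceeded the lowest 7.94-fold, and DMSO replicate 4 fell below WT replicate 1, so that the DMSO and WT groups overlapped. The halofantrine libraries were all above WT, as was true in that direction of 26.0% of all genes.

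Mean Egr1 was 22.4 ± 15.7 CPM in WT (SD, n = 2), 121 ± 92.0 CPM in P23H DMSO (SD, n = 5) and 117 ± 43.5 CPM in P23H halofantrine (SD, n = 4). The log2 fold change against WT was 2.42 with DMSO (SE 0.860, 95% interval 0.53 to 4.32), and the adjusted p of 0.0673 by edgeR missed the threshold. With halofantrine it was 2.37 (SE 0.871, 95% interval 0.45 to 4.29), with an adjusted p of 0.0972 by edgeR. The estimated changes were thus about as large as those of Fos with a wider error. DESeq2 placed both past the threshold, with an adjusted p of 0.0161 and 0.0322. Leaving out both libraries that stood apart did so as well, with an adjusted p by edgeR of 0.0467 and 0.0305. Leaving out DMSO replicate 4 or 5 alone gave 0.0395 or 0.0486 for DMSO against WT. Fitting only the 2 groups compared gave 0.117 for DMSO and 0.0208 for halofantrine. With sample weights in limma-voom the log2 fold changes were 1.44 (adjusted p 0.0545) and 2.61 (adjusted p 0.00621). The exact two-sided permutation test gave a p of 0.143 for DMSO (3 of 21 splits, adjusted 0.214) and 0.0667 for halofantrine (1 of 15 splits, adjusted 0.150).

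Between halofantrine and DMSO, Egr1 differed by a log2 fold change of -0.06 with a 95% interval of -1.36 to 1.25, and the adjusted p was 0.981 by edgeR. The sign depended on the measure. The difference of mean log2 CPM was 0.25 in favor of halofantrine, and the medians of 130 CPM with halofantrine and 115.3 CPM with DMSO lay in that order too. In the exact two-sided permutation test 95 of 126 splits gave a mean difference as large (p = 0.754, adjusted 0.754).

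**Figure D2:**
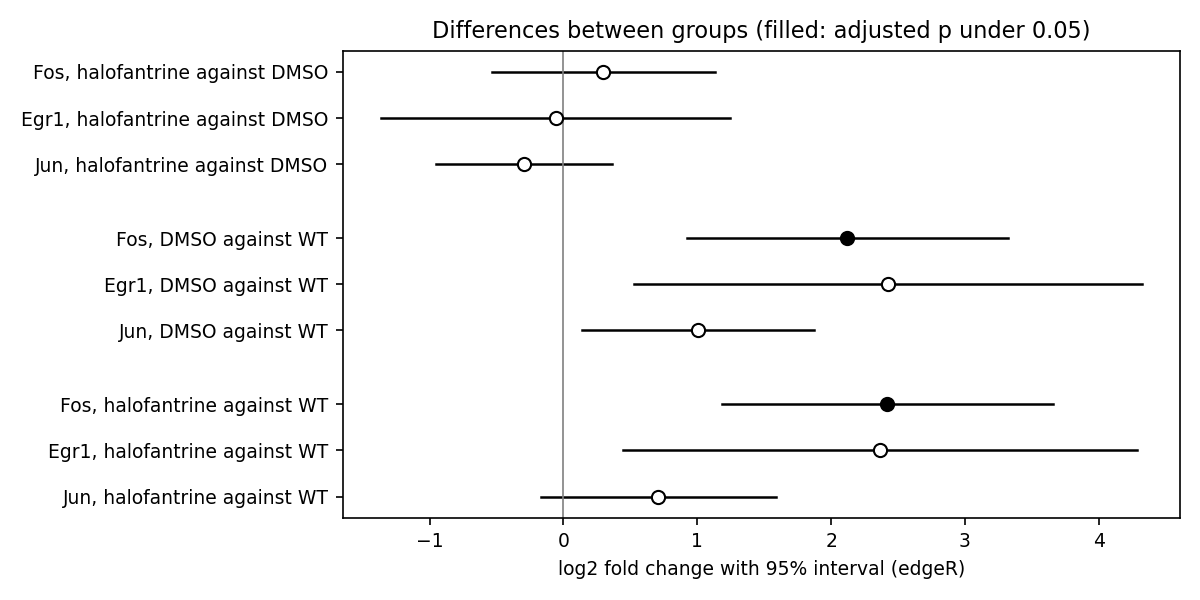
Log2 fold changes of the 3 genes in the 3 comparisons between groups, as points with 95% intervals from edgeR. Filled points mark an adjusted p under 0.05, which Fos reached against WT with DMSO (2.12) and with halofantrine (2.42). The 3 intervals for halofantrine against DMSO all span 0.

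The WT pair was close in Fos and Jun and far apart in Egr1. Fos differed 1.15-fold and Jun 1.02-fold between the WT libraries, but Egr1 differed 2.96-fold, from 569 counts in replicate 1 to 137 counts in replicate 2. Counting error gave 95% Poisson intervals of 30.9 to 36.4 CPM and 9.52 to 13.4 CPM, which do not meet. Only 24 of 12031 genes, or 0.199%, differed more between these 2 libraries on the log2 CPM scale. The error of each Egr1 comparison with WT includes this gap. Without WT replicate 1 the log2 fold change of Egr1 was 3.38 with DMSO and 3.32 with halofantrine, and without WT replicate 2 it was 1.83 and 1.78. None of these 4 values passed the threshold by edgeR, where the adjusted p ran from 0.150 to 0.448.

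Jun, the AP-1 partner of Fos, missed the edgeR threshold in the 3 comparisons when all 11 libraries were fitted together, and some other settings placed it past the threshold against WT. The WT libraries had 21.8 and 21.3 CPM of Jun. The DMSO libraries had 48.5, 26.3, 79.9, 32.1 and 29.8 CPM in replicates 1 to 5. The halofantrine libraries had 38.2, 41.4, 30.1 and 31.3 CPM in replicates 1 to 4. Every P23H library was above both WT libraries, which held in that direction for 18.4% of all genes, and for DMSO alone for 27.1%. The highest value came from DMSO replicate 3, the library that stood apart most across all genes.

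Mean Jun was 21.6 ± 0.338 CPM in WT (SD, n = 2), 43.3 ± 22.1 CPM in P23H DMSO (SD, n = 5) and 35.2 ± 5.41 CPM in P23H halofantrine (SD, n = 4). Against WT the log2 fold change was 1.00 with DMSO (SE 0.393, 95% interval 0.14 to 1.87, adjusted p 0.0900 by edgeR) and 0.71 with halofantrine (SE 0.398, 95% interval -0.17 to 1.58, adjusted p 0.243 by edgeR). Without DMSO replicate 3 these were 0.58 and 0.66, with an adjusted p by edgeR of 0.0658 and 0.0441. Without both libraries that stood apart they were 0.58 and 0.62, with an adjusted p by edgeR of 0.0542 and 0.0501. With DMSO against WT the adjusted p was 0.0417 by DESeq2, and with only the 2 groups fitted it was 0.0273 by edgeR for halofantrine against WT. Sample weights in limma-voom gave 0.00334 and 0.0204. The exact two-sided permutation test gave a p of 0.0952 for DMSO (2 of 21 splits, adjusted 0.171) and 0.0667 for halofantrine (1 of 15 splits, adjusted 0.150). Halofantrine differed from DMSO by a log2 fold change of -0.30 (95% interval -0.95 to 0.36, adjusted p 0.732 by edgeR), and by 0.073 without DMSO replicate 3. The exact two-sided permutation p was 0.675, adjusted 0.754.

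**Figure D3:**
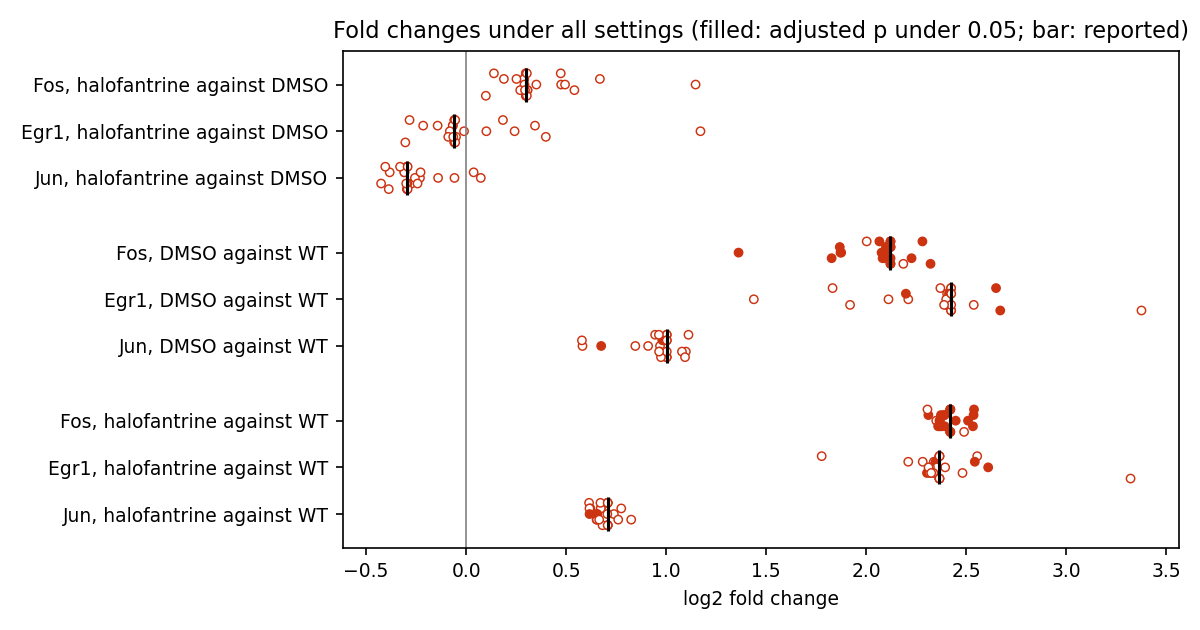
Log2 fold changes of the 3 genes under the reported setting (black bar) and 23 others, including each library left out in turn. Filled points have an adjusted p under 0.05. Values for halofantrine against DMSO stay unfilled throughout and lie on both sides of 0 for Egr1 and Jun.

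Within groups, Fos and Egr1 rose and fell together from retina to retina. The comparison used log2 CPM with each group's mean removed, so that differences between groups played no part. Over 11 libraries Pearson's r was 0.951 (permutation p 1e-05, the smallest that 100000 resamples can give, adjusted 3e-05 over 3 pairs) and Spearman's rho was 0.909 (permutation p 0.000320, adjusted 0.000960). With the 2 libraries farthest from the median of Fos left out, which were the WT pair, r was 0.993. In these 9 P23H libraries the 2 genes had the same order once group means were removed, with a rho of 1.00. Permuting only within groups gave an exact p of 0.000174, and r was 0.941 without the 2 libraries that stood apart.

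Over all 11 libraries Jun did not follow this pattern to a degree that passed the test. Its r with Fos was 0.331 (permutation p 0.320, adjusted 0.481) with a rho of 0.309 (permutation p 0.356, adjusted 0.357). Its r with Egr1 was 0.238 (permutation p 0.496, adjusted 0.496) with a rho of 0.309 (permutation p 0.357, adjusted 0.357). Leaving out the 2 libraries farthest from the median on the x axis dropped different libraries for the 2 pairs. The r with Fos was 0.331 without the WT pair, and the r with Egr1 was -0.439 without DMSO replicates 1 and 3. Among the 9 P23H libraries the same step gave -0.179 with Fos and -0.499 with Egr1. Single libraries decided both r values over the 11 libraries. Without DMSO replicate 3 they were -0.0630 and -0.0579. DMSO replicate 2 was the library with the most Fos and Egr1 and the least Jun of the P23H retinas. Without it the r was 0.771 with Fos (permutation p 0.00910) and 0.671 with Egr1 (permutation p 0.0260), both p unadjusted and under 0.05. Without both libraries that stood apart the r was 0.0212 with Fos and 0.0221 with Egr1.

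**Figure D4:**
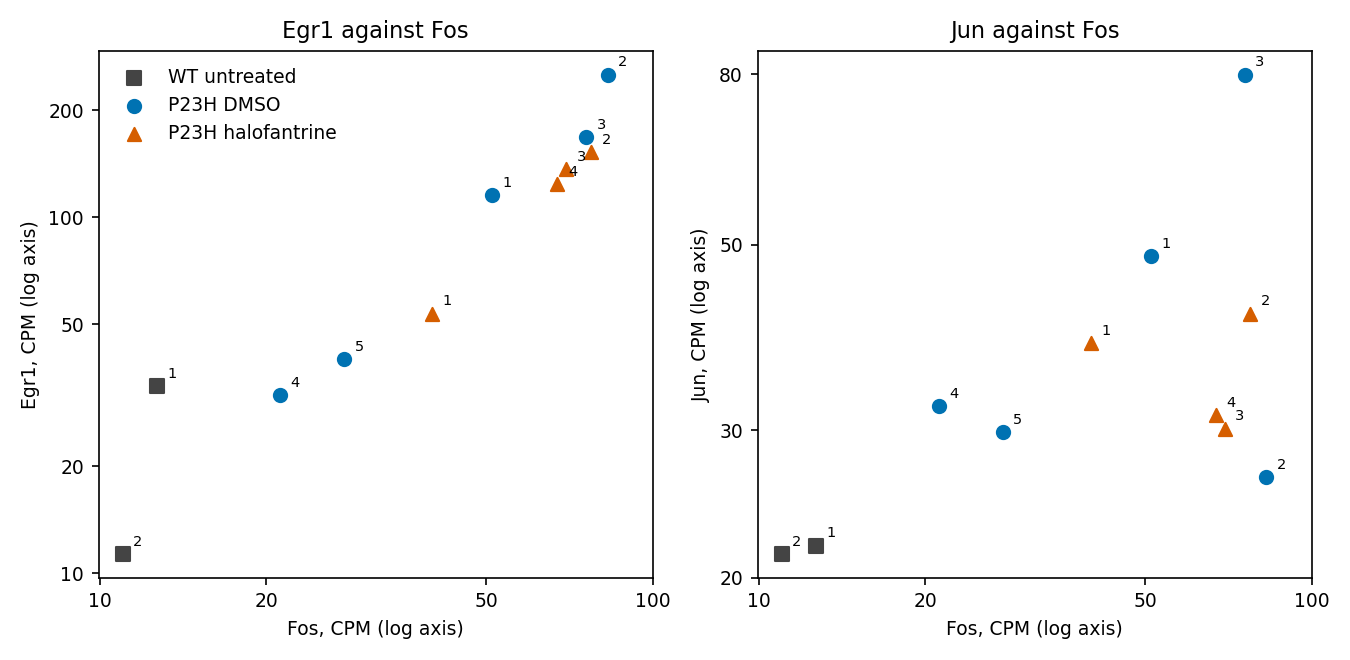
Egr1 (left) and Jun (right) against Fos in 11 retinas (CPM, both axes logarithmic), with replicate numbers beside the points. Egr1 climbs with Fos through both P23H groups, while Jun has its highest and its lowest P23H value, 79.9 and 26.3 CPM, in 2 DMSO retinas with high Fos.

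The ratio of counts within a library needs no scaling. There were 1.45 to 3.04 Egr1 counts per Fos count in DMSO, 1.35 to 1.97 with halofantrine, and 2.65 and 1.03 in WT. Jun counts per Fos count were 1.72 and 1.94 in WT, 0.318 to 1.52 in DMSO and 0.433 to 0.957 with halofantrine. The Jun to Fos ratio was lower in each P23H library than in either WT library, and the Egr1 to Fos ratio overlapped between all groups. Fos itself had a log2 fold change against WT of 2.12 with DMSO and 2.42 with halofantrine. The median gene had 0.04 and 0.05, so a lower ratio to Fos need not be particular to Jun. The share of all genes with such a ratio was not computed. A ratio compares unequal change between genes and gives no level.

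The genes most like each member over 11 libraries, by Pearson's r of log2 CPM among genes averaging 1 CPM or more, are given as a description, since all of them share libraries and group differences. Out of 12030 genes, Egr1 ranked 2 for Fos, and Fos ranked 1 for Egr1. ENSRNOG00000063437 was nearest to Fos (r = 0.970) and second to Fos for Egr1 (r = 0.932). ENSRNOG00000008001 was next for both, at 0.929 and 0.889. It was not among the 5 nearest to either gene without the 2 libraries that stood apart, nor with group means removed. ENSRNOG00000049782 was nearest to Jun (r = 0.974). Symbols for these are not given in the tables used here. With group means removed Egr1 ranked 1 for Fos and Fos ranked 1 for Egr1. Only 20 genes then had an r above 0.8 with Fos and 8 with Egr1, whereas 843 did with Jun. Jun itself ranked 2162 for Fos and 2746 for Egr1. Without the 2 libraries that stood apart the numbers above 0.8 were 156, 97 and 392, and Egr1 ranked 7 for Fos while Fos ranked 2 for Egr1.

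The spread between retinas of 1 group was itself large for these genes. The pooled SD within groups was 0.67 log2 units for Fos, 1.08 for Egr1 and 0.48 for Jun, where the median gene had 0.22. Fos exceeded 94.6% of 12031 genes in this, Egr1 97.9% and Jun 89.8%. Without the 2 libraries that stood apart the SD was 0.63 for Fos and 1.08 for Egr1, but that of Jun fell to 0.31. Their places among all genes then were 98.9%, 99.6% and 92.4%. The biological coefficient of variation, the relative spread beyond counting error as edgeR estimates it, was 0.395 for Fos, 0.595 for Egr1 and 0.318 for Jun. Genes of like abundance had 0.223, 0.199 and 0.236 by the fitted trend.

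**Figure D5:**
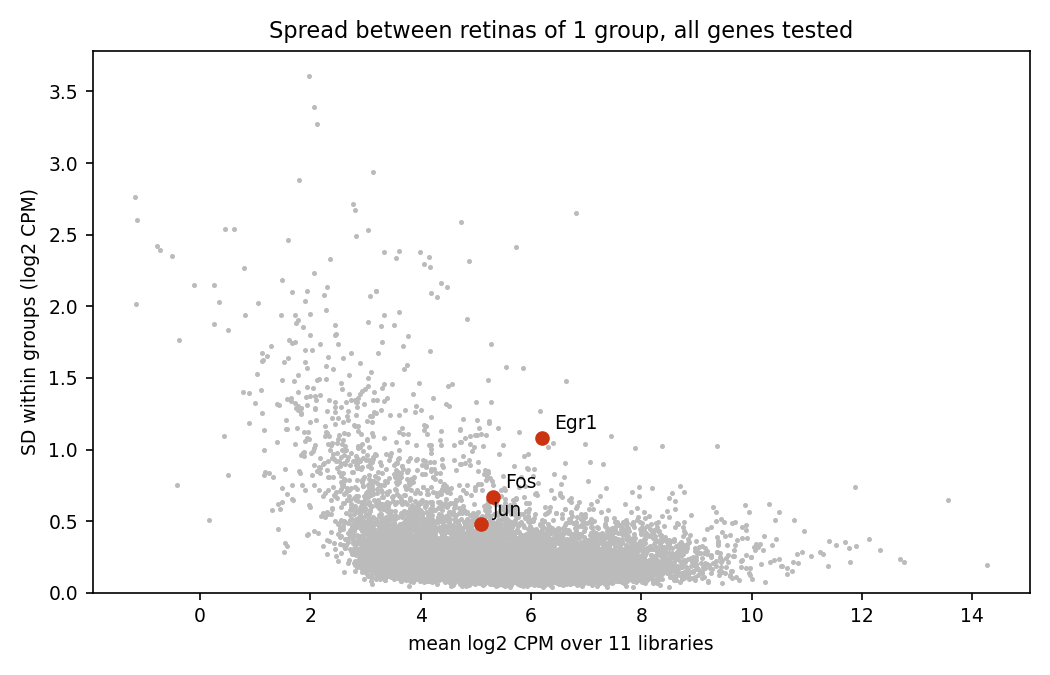
SD within groups (log2 CPM) against mean log2 CPM for 12031 genes in grey, with the 3 members in red. Egr1 (1.08) and Fos (0.67) exceed 97.9% and 94.6% of all genes, and Jun (0.48) exceeds 89.8%.

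Gene counts were whole numbers, to within 1e-06, in all 11 libraries for Fos and Egr1 and in 2 of 11 for Jun. Of the 95472 transcripts in the deposited table, whose estimated counts need not be whole either, 1 matched the Fos gene counts to within 0.01 in all 11 libraries, and 1 matched those of Egr1. No transcript matched Jun in all 11 libraries, either within 0.01 or after both tables were rounded to whole numbers.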

How the data were processed

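Retinal polyadenylated RNA was sequenced from strand-specific libraries made from 100 ng of total RNA. Per the methods, the authors quantified transcripts of the rat Ensembl annotation by kallisto, and tximport gave gene sums. The genome build is not given in the sources used here. The deposited gene and transcript tables hold estimated counts, not scaled for depth. A further deposited table holds a normalized signal, which the authors made by dividing gene counts by 1 constant per library. Their table of halofantrine against DMSO (fold changes, mean expression, p-values, test scores) was not used.

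Groups followed the sample labels, and replicates were numbered by accession order, which pairs no samples. Counts were rounded, and filterByExpr left 12031 of 12037 genes. Groups were compared by quasi-likelihood in edgeR 4.0.16 (R 4.3.3), using TMM factors, all 11 libraries in 1 fit and Benjamini-Hochberg adjustment over all genes (threshold 0.05). Standard errors and 95% intervals were derived from its F statistic. Log2 CPM had a prior count of 2, and depth per library was 11685202 to 34198536 counts. Poisson intervals cover counting error only. Alternatives included limma-voom (limma 3.58.1), DESeq2 1.42.0, other scalings and filters, and each library left out. Leaving out both libraries that stood apart, sample weights, the authors' library sizes and permutation within groups were added after seeing the data.

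The members and lists were chosen with earlier results of these data known. The naming rule was the 3 members, listed genes past the threshold, a fixed set of other immediate early genes, and the 5 genes most like each member. The reference table pairs 0 identifiers with symbols, so the 190 listed symbols (AP-1 and EGR partners, other immediate early genes, upstream kinases, cell type markers) were not analysed here. Only some of the nearest identifiers are printed for likeness.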

Additional observations from a re-analysis of the deposited data

How the results depend on the processing

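No paired analysis was possible because each library came from a different animal, in 1 group only, and the labels pair no animals. Values are log2 fold changes or Pearson's r. Other scalings and filters, the authors' library sizes and counts left unrounded kept each gene on its side of 0 and of the threshold. DESeq2 placed Jun (0.98) and Egr1 (2.41) past it for DMSO against WT and Egr1 (2.35) for halofantrine against WT. In limma-voom Fos missed it against WT with DMSO (1.88) and halofantrine (2.35), and Egr1 turned to 0.24 for halofantrine against DMSO. With only the 2 groups compared, Fos missed it for DMSO against WT (2.09, adjusted p 0.0519 by edgeR), and for halofantrine against WT Jun (0.65) and Egr1 (2.30) passed. Without both libraries that stood apart, Egr1 passed against WT with DMSO (2.20) and halofantrine (2.54), and halofantrine against DMSO turned to 0.34 for Egr1 and 0.038 for Jun. With sample weights, Jun passed against WT with DMSO (0.68) and halofantrine (0.62), as did Egr1 with halofantrine (2.61), and Egr1 turned to 1.17 for halofantrine against DMSO. The cause was not tested.

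With each library left out in turn, Fos ranged from 1.83 to 2.32 for DMSO against WT, 2.31 to 2.54 for halofantrine against WT and 0.10 to 0.54 for halofantrine against DMSO. Egr1 ranged from 1.83 to 3.38, 1.78 to 3.32 and -0.30 to 0.40 in this order. Jun ranged from 0.58 to 1.11, 0.61 to 0.78 and -0.42 to 0.073. A lone WT library was assumed to vary like the other groups. The r of Fos with Egr1 stayed between 0.932 and 0.993, while Fos with Jun ran from -0.0630 to 0.771 and Jun with Egr1 from -0.0579 to 0.671.

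Over all genes, 1 gene was called for halofantrine against DMSO (1310 at an unadjusted p under 0.05), 2548 for DMSO against WT and 1580 for halofantrine against WT. Sample weights gave 742, 7207 and 6622, leaving out both libraries gave 2, 5387 and 5472, and DESeq2 gave 34, 3400 and 2491. For halofantrine against WT limma-voom gave 1024. Fitting only the 2 groups compared gave 0 genes for halofantrine against DMSO by edgeR (981 at an unadjusted p under 0.05), and leaving out single libraries gave 0 to 2. Leaving out a WT library gave 519 or 611 for DMSO against WT and 211 or 232 for halofantrine against WT. The last was 3588 without DMSO replicate 3, and 2787, 890 and 892 without halofantrine replicates 1, 3 and 4. Scaling by library size alone moved the median of all genes by 0.11 against WT with DMSO and 0.12 with halofantrine, and calls above WT went from 1308 of 2548 to 1927 of 2722 and from 668 of 1580 to 1198 of 1734. Upper quartile scaling gave 760 of 1440 in the latter. The gene list counts were not run.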

Other observations

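The 2 DMSO retinas with the least Fos and Egr1, replicates 4 and 5, had adjacent animal numbers in the labels, above those of all other P23H rats. DMSO replicates 2 and 3, with the most Fos and Egr1 of that group, also had adjacent numbers, as did halofantrine replicates 3 and 4. In Jun, however, DMSO replicates 2 and 3 were the lowest and the highest of the P23H retinas, at 26.3 and 79.9 CPM. The WT pair had adjacent numbers as well and differed 2.96-fold in Egr1. The numbers of the 4 halofantrine rats lay below those of all 5 DMSO rats. Replicates 4 and 5 were also the 2 deepest DMSO libraries, with 34198536 and 30147886 counts. The part of the order of animals in the Fos and Egr1 levels was not tested.

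The relation of the members to depth was computed in a family of 3, on log2 values with group means removed over 11 libraries. For Fos r was -0.534 (permutation p 0.0912, adjusted 0.250) with a rho of -0.518 (permutation p 0.107, adjusted 0.321). For Egr1 r was -0.448 (permutation p 0.167, adjusted 0.250) with a rho of -0.391 (permutation p 0.236, adjusted 0.354). For Jun r was -0.199 (permutation p 0.559, adjusted 0.559) with a rho of -0.245 (permutation p 0.469, adjusted 0.469). Without the 2 libraries farthest from the median depth r was -0.712 for Fos, -0.713 for Egr1 and -0.0575 for Jun. None passed the test, and over the 9 libraries that did not stand apart r was -0.481 for Fos, -0.353 for Egr1 and -0.376 for Jun. Among those 9 the sign for Fos and Egr1 rested on DMSO replicates 4 and 5, since leaving these out as well gave 0.903 and 0.794, and -0.282 for Jun.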
